A study of Mus musculus with 15 samples.

Results

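Imprinted genes are transcribed mainly from 1 parental copy, and the 50 examined here lie outside the Peg3 domain of mouse chromosome 7. They were taken by symbol from a written list and looked up in a table of expression values for 26061 genes, where 49 of the 50 were found. The expression of Kcnq1ot1 was not analysed here. All 49 passed the filter on low values (above the lowest value of the table in at least 5 of 15 libraries), as did 19490 genes in all. Of the 49, 22 are paternally expressed, 22 are maternally expressed and 5 (Blcap, Gnas, Inpp5f, Phactr2 and Casd1) have an allele that depends on the transcript or tissue or were not assigned. The list also holds genes whose imprinting is described mainly in a single organ such as brain or placenta.

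RNA was sequenced from E14 mouse embryonic stem cells (ESCs) that had been infected with lentiviral pLKO.1 vectors expressing a non-targeting hairpin (shScr), a hairpin against Tet1 (shTet1) or a hairpin against Tet2 (shTet2), with 5 libraries in each group. All cells were grown without feeders in serum with LIF and were selected with puromycin for 3 days from 24 h after infection. TET1 and TET2 oxidise 5-methylcytosine, the mark that distinguishes the parental copies at imprinted clusters, and the comparisons made here ask whether imprinted transcripts differ in cells depleted of either enzyme. Each knockdown rests on 1 hairpin. E14 cells derive from an inbred 129 strain, so the reads carry no information on which parental copy was transcribed, and every level given is the sum of both. Levels are given as normalised reads, that is, reads recovered from the deposited values and divided by the size factor of the library. Differences are on the log2-like scale of the deposited values, which is close to log2 for well expressed genes and compresses differences at few reads.

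At an imprinted cluster, a control region carries DNA methylation from only 1 of the gametes, and this difference is kept in the embryo by ZFP57 with TRIM28 and by maintenance methylation through DNMT1. The methylated mark is laid down in the oocyte at most clusters and in sperm at H19-Igf2, Dlk1-Dio3 and Rasgrf1. Within a cluster the mark acts through an insulator, as at H19-Igf2, or through a long non-coding RNA, as at Igf2r-Airn and in the Cdkn1c cluster, so that neighbouring genes are often expressed from opposite copies. ESC cultures are known for unstable imprints, with gain or loss of methylation differing between lines and passages.

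The libraries held 15258291 to 35432425 reads in genes, and within a group they correlated at r = 0.977 to 0.995. Tet1 fell by 1.84 on the log2-like scale of the deposited values in shTet1 (limma adjusted p = 0.000228), and Tet2 fell by 1.90 in shTet2 (limma adjusted p = 3.67e-07), so the targeted genes follow the labels. Of 10 ESC marker genes 9 were found, and their summed normalised reads were 96748 to 114386 in shScr, 104086 to 129506 in shTet1 and 85648 to 104313 in shTet2. The summed reads of 10 trophoblast markers (8 tested) were 92.1 to 203 in shScr, 179 to 246 in shTet1 and 127 to 299.7 in shTet2, those of 8 mesoderm markers 87.7 to 252 in shScr, 186 to 286 in shTet1 and 148 to 350.4 in shTet2, and those of 10 fibroblast markers (9 tested, 1 at 0 in all libraries) 266 to 1353 in shScr, 303 to 424 in shTet1 and 469 to 1532 in shTet2. The sums of 12 primitive endoderm markers were 6232 to 8811 in shScr, 5936 to 7967 in shTet1 and 5239 to 8949.6 in shTet2, and those of 8 neural markers (6 tested) 1179 to 2294 in shScr, 1117 to 2179.6 in shTet1 and 1206 to 2815 in shTet2. Of the 12 primitive endoderm genes 10 had lower means in shTet2 than in shScr (median −0.40), with 0 called by limma. An unadjusted p below 0.05 was found for 5 (41.7%), beside 11.6% of all genes. In shTet1 10 had lower means (median −0.23), with 0 called and 1 (8.33%) at that p, beside 11.8% of all genes. The part of these 12 genes in the members' results was not tested. Among these lists limma called only Fgf4 (−0.59, adjusted p = 0.0126) and Eomes, which stands in both the trophoblast and the mesoderm list (−0.94, adjusted p = 0.0185), both lower in shTet2 than in shTet1. Genes of the 2-cell-like state, of which 11 were tested, summed to 16609 to 29392 in shScr, 3339 to 19026 in shTet1 and 35155 to 58700.1 in shTet2. In shTet2 against shTet1 all 11 were higher and 10 were called (90.9%, beside 4.24% of all genes), with a median difference of 2.22. Against shScr, limma called 1 of the 11 in shTet2 (9.09%, beside 0.39% of all genes) and 0 in shTet1. In shTet1 10 had an unadjusted p below the threshold of 0.05 (90.9%, beside 11.8% of all genes). The part of these 11 genes in the results below was not tested. Replicates 1 and 2 stand apart from replicates 3 to 5. Deviations from group means over all genes were correlated between libraries of different groups. The median r was 0.31 (−0.22 to 0.77) where both came from the same set and −0.37 (−0.50 to −0.05) where they did not. Deviations balance out within a group, so these medians are not separate evidence. Values within each set are therefore given for Cdkn1c, Slc38a4, Ube3a, Asb4, Ddc and Ppp1r9a, but not for every comparison. Reads in 1451 receptor genes (olfactory and vomeronasal) made up 54.5 to 64.7 RPM of all reads in genes in shScr replicate 4, shTet1 replicates 3 and 4 and shTet2 replicate 4, and 11.1 to 26.5 in the other libraries.

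ZFP57 recognises the letters TGCCGC in methylated DNA, and these letters were searched on both strands (GCGGCA on the other) in windows from 250 bases before to 50 bases after each RefSeq transcription start (build GRCm38.p6). Of the 50 listed genes 41 matched by symbol, with 66 windows. The others were H19, Peg10, Sgce, Cdkn1c, Kcnq1, Impact, Trappc9, Klf14 and Dcn. The motif lay in 15 of the 66 windows (22.7%), against 3813 of 32851 windows of all genes (11.6%), and the median number of CpGs per window was 14.5 against 7. It was found in 8 of 33 windows of paternally expressed genes (24.2%), in 6 of 24 of maternally expressed genes (25%) and in 1 of 9 of the remaining genes (11.1%). Some windows of 1 gene overlap, so they are not independent. A match is a description of the letters and not of binding. The next 4 stretches of 100 bases, each before a start, are shown because they place the motif (in capitals) at Zdbf2, at Nap1l5, at the maternally expressed RNA Meg3 and at Plagl1. Zdbf2 holds the motif 3 times.
Zdbf2 chr1:63200180-63200279 plus strand: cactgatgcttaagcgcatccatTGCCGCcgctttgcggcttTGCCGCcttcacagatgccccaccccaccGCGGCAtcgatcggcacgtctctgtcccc
Nap1l5 chr6:58907127-58907226 minus strand: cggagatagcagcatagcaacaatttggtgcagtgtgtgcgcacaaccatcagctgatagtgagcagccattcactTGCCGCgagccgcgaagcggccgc
Meg3 chr12:109540759-109540858 plus strand: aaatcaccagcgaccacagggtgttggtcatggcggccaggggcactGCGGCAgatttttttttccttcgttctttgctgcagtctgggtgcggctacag
Plagl1 chr10:13090695-13090794 plus strand: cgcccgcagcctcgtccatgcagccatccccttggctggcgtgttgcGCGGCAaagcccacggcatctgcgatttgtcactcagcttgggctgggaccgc

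No motif match lay in the stretches below, which are the 200 bases before the most upstream start of the 3 named members with a window whose expression results are described in most detail, with each CpG in capitals. They differ in CpG content, with 22 in the stretch of Ube3a, 8 in that of Ppp1r9a and 2 in that of Slc38a4. The stretch of Ppp1r9a does not stand for its promoter region as a whole. Its other window, just downstream at chr6:4903061-4903360, held 48 CpGs, against 10 in the window of the stretch shown.
Slc38a4 chr15:97055957-97056156 minus strand: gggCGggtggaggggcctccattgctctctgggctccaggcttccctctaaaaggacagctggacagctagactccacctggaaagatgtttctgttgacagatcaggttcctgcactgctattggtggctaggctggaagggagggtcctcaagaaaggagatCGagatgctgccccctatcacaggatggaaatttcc
Ube3a chr7:59228550-59228749 plus strand: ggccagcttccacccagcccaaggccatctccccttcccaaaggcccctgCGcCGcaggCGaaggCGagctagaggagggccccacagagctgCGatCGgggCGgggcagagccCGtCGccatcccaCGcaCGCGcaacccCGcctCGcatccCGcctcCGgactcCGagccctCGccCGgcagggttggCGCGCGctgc
Ppp1r9a chr6:4902775-4902974 plus strand: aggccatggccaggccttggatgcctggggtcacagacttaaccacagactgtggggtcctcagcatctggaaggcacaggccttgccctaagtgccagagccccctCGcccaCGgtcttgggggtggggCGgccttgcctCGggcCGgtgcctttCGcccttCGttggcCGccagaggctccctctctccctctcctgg

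The members covered a wide range of RNA levels in control cells. Scaled to exon length, the highest in shScr was Slc38a4, an amino acid transporter, at 1969.8 ± 338 normalised reads per kb (mean ± SD, n = 5), followed by Ube3a, a ubiquitin ligase, at 1738 ± 295, Impact, a regulator of translation, at 1650.2 ± 364 and Rian, a non-coding RNA of the Dlk1-Dio3 cluster, at 1337 ± 341. The spreads of these neighbours overlapped, so their order is not resolved. The next were Cd81 at 1169 ± 231, Snrpn at 935 ± 157, Cdkn1c at 650.5 ± 96.7 and Phlda2 at 521 ± 99.2. At the other end were Kcnq1 at 0.444 ± 0.993, Rasgrf1 at 0.277 ± 0.202 and Airn at 0.250 ± 0.404, and 6 members (Airn, Kcnq1, Nap1l5, Rasgrf1, Klf14 and Dcn) had 0 reads in at least 1 library. A mean of 100 normalised reads or more was reached by 32 of the 49, and small differences were not detectable for the rest at this depth. Exons of Mest and Copg2 overlap on opposite strands, as do those of Gnas and Nespas. Commd1 shares 2.42% of its exon bases with Zrsr1 on the opposite strand and 29.2% with B3gnt2 on its own strand. Reads of these genes may be split between partners, since the use of strand in the counting is not stated. For Commd1 and B3gnt2, strand would not separate the reads.

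**Figure D1:**
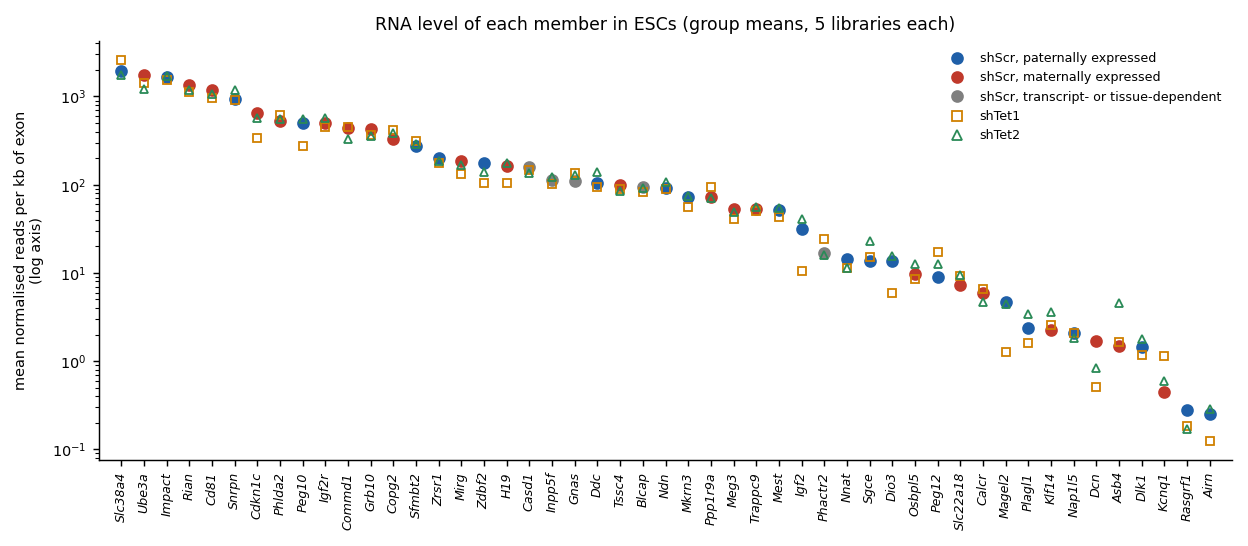
Mean normalised reads per kb of exon (log axis) for each of the 49 members in shScr (filled circles, coloured by expressed allele), shTet1 (open squares) and shTet2 (open triangles), 5 libraries each, ordered by the level in shScr. Levels in shScr run from 1969.8 per kb for Slc38a4 to 0.250 for Airn, so the members span about the whole range of the axis.

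In shTet1 against shScr no member passed limma's test at an adjusted p under 0.05, where 0.0718% of all genes tested did (14 of 19490). Fitted on the recovered reads with voom, a weighting of log counts for limma, 0 members were called as well. At an unadjusted p under 0.05, 7 of the 49 were counted (14.3%), against 11.8% of all genes, and the groups did not overlap for 0 members against 2.62% of all genes. The 7 were Cdkn1c, Zdbf2 and Dio3, with lower means in shTet1, and Slc38a4, Ppp1r9a, Peg12 and Kcnq1, with higher means. Below 0 lay 32 of the 49 differences, with a median of −0.14 beside 0.01 over all genes, and among the 32 members with 100 normalised reads or more 23 were lower and 9 higher. Libraries that carry the same replicate number deviated together between these groups (r = 0.374 to 0.657). Libraries of different groups from the same replicate set did so too (median r 0.31). Whether a shared number adds to a shared set was not tested. A block of replicate numbers was fitted over all 15 libraries, although the numbers were not taken as pairs for shTet2 with shScr. With this block limma called 4 members (8.16%), beside 4.8% of all genes. These were Cdkn1c and Igf2, lower in shTet1, and Slc38a4 and Ppp1r9a, higher in shTet1. In bulk RNA, fewer cells expressing a gene and less RNA per cell cannot be told apart.

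In the main fit of shTet1 against shScr, paternally and maternally expressed members had close medians. Of 22 paternally expressed members 16 were lower and 6 higher in shTet1 (median −0.15). Of 22 maternally expressed members 13 were lower and 9 higher (median −0.14). Within replicates 1 and 2 the classes parted, with medians of −0.21 (paternal, 3 higher, 18 lower) and 0.10 (maternal, 12 higher, 10 lower). Within replicates 3 to 5 the medians were −0.13 and −0.03, and with voom −0.27 and −0.15. At an unadjusted p under 0.05 stood 4 paternally expressed members (18.2%) and 3 maternally expressed ones (13.6%), beside 11.8% of all genes. The block called 2 of each (9.09%), beside 4.8% of all genes. Against shScr, shTet2 had 14 paternally expressed members higher and 8 lower (median 0.05), and 10 maternally expressed members higher and 12 lower (median −0.03). The direction of the paternally expressed members turned when the libraries were centred on their medians (6 higher and 16 lower, with 8 and 14 among maternally expressed members) and with quantile normalisation (9 higher and 13 lower). Centring is a scaling that moved the median of all genes from 0.04 to −0.07.

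**Figure D2:**
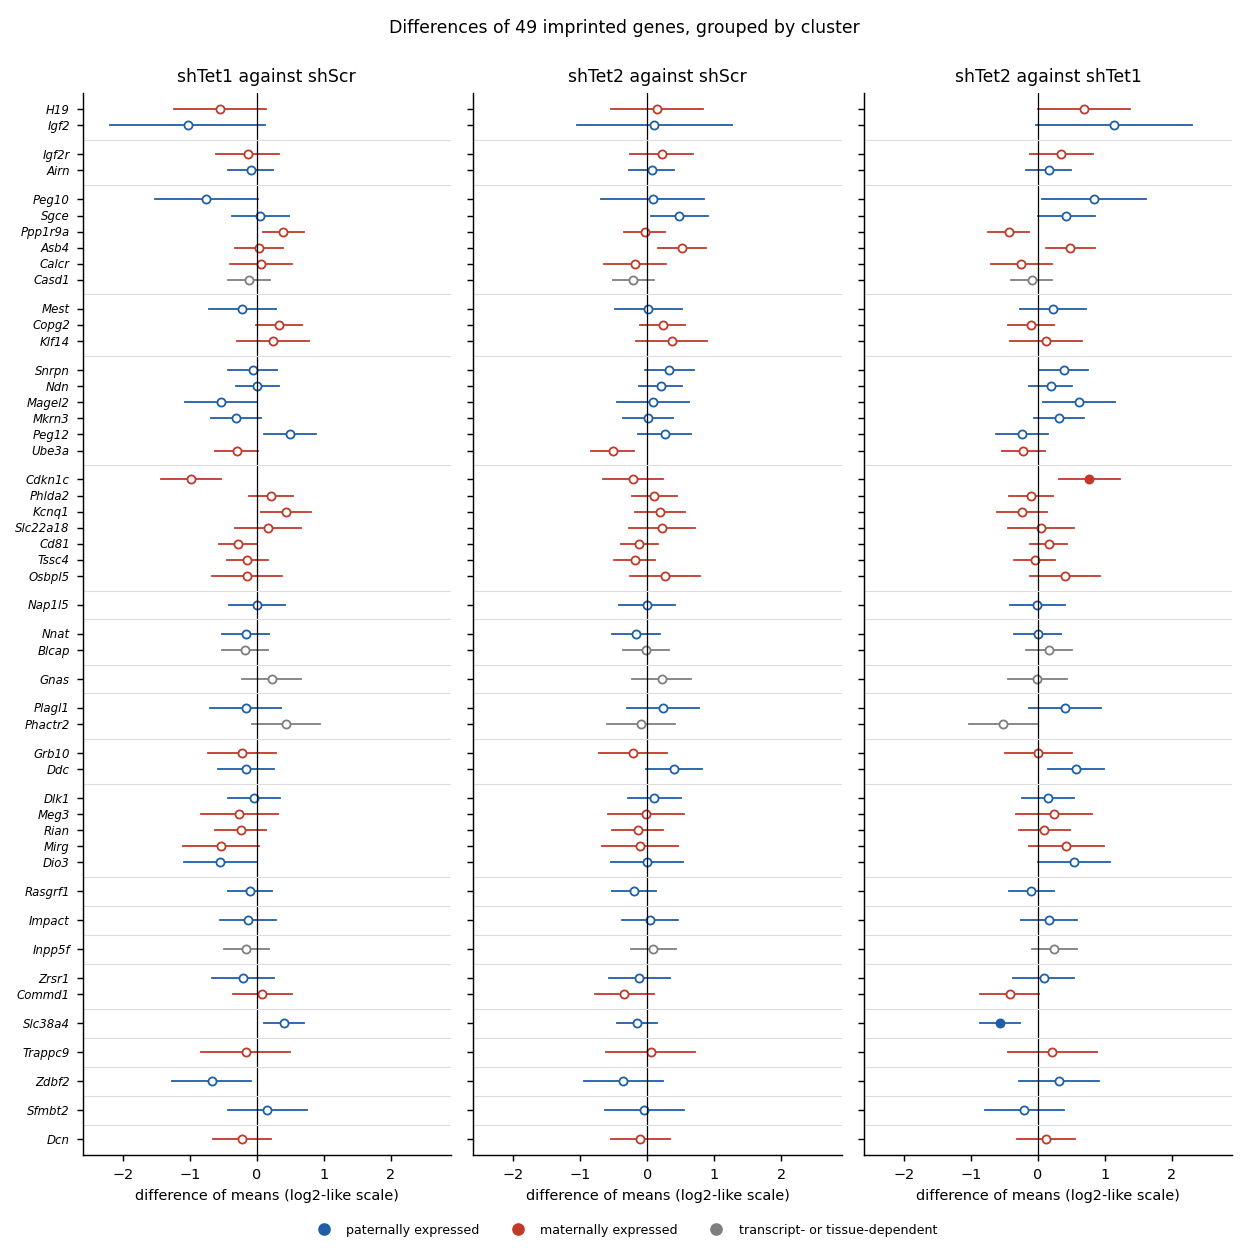
Difference of group means on the log2-like scale (points) with 95% confidence intervals (bars) for 49 members in the 3 comparisons, 5 libraries a group, coloured by expressed allele. Grey lines separate clusters, and filled points mark an adjusted p under 0.05. Only Cdkn1c (0.77) and Slc38a4 (−0.56), both in shTet2 against shTet1, are filled.

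Cdkn1c, a maternally expressed inhibitor of cyclin-dependent kinases at chr7:150644255-150646955, minus strand (mm9), had the smallest p-value of the members in shTet1 against shScr. It had 1318, 1377, 1154, 984 and 1447 normalised reads in shScr replicates 1 to 5, 424, 565, 674, 466 and 1112 in those of shTet1 and 1221, 800.1, 1062, 908 and 1452 in those of shTet2. Every shTet1 library but replicate 5 lay below all shScr libraries, so the groups overlapped through replicate 5 alone, and the shTet1 mean was 51.6% of the shScr mean. The difference was −0.98 (SE 0.21, 95% CI −1.43 to −0.53), with a limma adjusted p of 0.0755, an exact permutation p of 0.0159 and the same sign in 5 of 5 same-numbered pairs. With the replicate number as a block the limma adjusted p was 0.00431, and without shTet1 replicate 5 the difference was −1.19 (limma adjusted p = 0.01). Within replicates 1 and 2 it was −1.39, and within replicates 3 to 5 −0.71. In shTet2 the mean was 86.7% of the shScr mean (difference −0.22, 95% CI −0.67 to 0.23, limma adjusted p = 0.779). Cdkn1c rose by 0.77 in shTet2 relative to shTet1 (95% CI 0.32 to 1.22, limma adjusted p = 0.0494, exact permutation p = 0.0397, block 0.00364), by 0.96 within replicates 1 and 2 and 0.64 within replicates 3 to 5. That call was kept when shScr replicate 4, shTet1 replicate 5 or shTet2 replicate 2 was left out and was lost when any of the other 12 libraries was (adjusted p 0.00387 to 0.141 over the 15 fits).

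Other maternally expressed genes of the same cluster had smaller differences than Cdkn1c in shTet1 against shScr, in both directions. Phlda2, a growth-restraining gene of the placenta, differed by 0.21 in shTet1 and 0.11 in shTet2 against shScr. Cd81, a tetraspanin, differed by −0.28 and −0.12, Slc22a18, a transporter, by 0.17 and 0.21, Tssc4 by −0.14 and −0.19, and Osbpl5, a lipid transfer protein, by −0.14 and 0.26, none with an adjusted p under 0.05. Kcnq1, a potassium channel gene in whose span the cluster's non-coding RNA arises, was at the limit of detection, with 0, 0, 6.85, 0 and 0 normalised reads in shScr replicates 1 to 5, 4.38, 1.53, 5.11, 3.11 and 3.38 in those of shTet1 and 5.54, 0.769, 0, 0.571 and 2.24 in those of shTet2. Its fitted difference in shTet1 was 0.43 (SE 0.18, 95% CI 0.06 to 0.80, limma adjusted p = 0.331, exact permutation p = 0.0476) and rests on 0 to 7 reads a library. A pair of genes of the region that are not among the members were called in shTet2 against shTet1, namely Ascl2, a trophoblast transcription factor (0.88, limma adjusted p = 0.0312), and Tnfrsf23, a decoy receptor (0.72, limma adjusted p = 0.00585).

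Slc38a4, paternally expressed at chr15:96825254-96886387, minus strand, differed in the opposite direction. It had 7891, 7895, 8859.8, 5757 and 9290.1 normalised reads in shScr replicates 1 to 5, 10209.9, 9502, 10571, 9011 and 13233 in those of shTet1 and 6699.9, 6816, 7035, 6420.1 and 8378 in those of shTet2. All 5 shTet1 libraries lay above all 5 shTet2 libraries, and shTet1 overlapped with shScr. It fell by 0.56 in shTet2 relative to shTet1 (SE 0.14, 95% CI −0.86 to −0.26, limma adjusted p = 0.0307, exact permutation p = 0.00794, the smallest that 5 against 5 libraries allow), by 0.54 within replicates 1 and 2 and 0.58 within replicates 3 to 5. The shTet1 mean was 132% of the shScr mean, a difference of 0.41 (95% CI 0.11 to 0.71) with a limma adjusted p of 0.242 and, with the replicate block, of 0.0192. The shTet2 mean was 89.1% of the shScr mean, at −0.15 (95% CI −0.45 to 0.15, limma adjusted p = 0.763). The call in shTet2 against shTet1 was lost in 7 of 15 fits that left out 1 library (shTet1 replicates 1, 3 and 5, shTet2 replicates 1, 2, 3 and 4), with differences of −0.62 to −0.48 and adjusted p-values of 0.0135 to 0.0771.

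In shTet2 against shScr no member passed the adjusted test either, beside 0.39% of all genes, and voom called 0. At an unadjusted p under 0.05 stood Ube3a, Asb4 and Sgce, 3 of 49 (6.12%) beside 11.6% of all genes. The groups did not overlap for 0 members, beside 2.7% of all genes. The 49 differences were nearly balanced, with 26 higher and 23 lower and a median of 0.01 beside 0.04 over all genes. Of these, 33 members imprinted broadly had 22 higher and 11 lower (median 0.09). The 16 imprinted in a restricted tissue had 4 higher and 12 lower (median −0.10). With libraries centred on their medians 15 of the 49 were higher and 34 lower.

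Ube3a, at chr7:66484122-66562097, plus strand, is maternally expressed in neurons and encodes the ubiquitin ligase lost in Angelman syndrome. It had 8412, 11074, 9478, 7075 and 8259 normalised reads in shScr replicates 1 to 5, 6089, 6011, 8531, 6524 and 8934 in those of shTet1 and 5639, 6003, 7106, 5072 and 7015 in those of shTet2. The shTet2 libraries were lower than the shScr libraries, but shTet2 replicate 3 lay above shScr replicate 4, and shTet1 overlapped with both. The difference of shTet2 from shScr was −0.52 (SE 0.15, 95% CI −0.84 to −0.19), with a limma adjusted p of 0.163, an exact permutation p of 0.0159, and values of −0.73 within replicates 1 and 2 and −0.38 within replicates 3 to 5. In shTet1 it was −0.30 (limma adjusted p = 0.469). On the log2-like scale the paternally expressed neighbours had means above shScr in shTet2, although the mean of Magel2 in normalised reads was lower (20.7 against 22.1). Snrpn, a spliceosomal protein gene, differed by 0.32, Ndn, encoding necdin, by 0.20, Magel2 by 0.09, Mkrn3, a ubiquitin ligase, by 0.01 and Peg12 by 0.26, none with an adjusted p under 0.05. In shTet1 the same genes differed by −0.06, 0.01, −0.53, −0.31 and 0.50.

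Peg12, an intronless gene of this cluster, had few reads. Its libraries held 32.8, 18.8, 26.3, 14.4 and 25.7 normalised reads in shScr replicates 1 to 5, 45.3, 58.1, 46.0, 56.0 and 20.3 in those of shTet1 and 30.1, 54.6, 26.6, 31.4 and 24.6 in those of shTet2. In shTet1, 4 libraries lay above every shScr library, and replicate 5 lay among them. The difference was 0.50 (SE 0.19, 95% CI 0.11 to 0.89, limma adjusted p = 0.282, exact permutation p = 0.0317). Magel2 had 35.8, 53.9, 3.43, 9.99 and 7.19 normalised reads in shScr replicates 1 to 5, 8.03, 6.12, 6.39, 3.11 and 5.64 in those of shTet1 and 16.6, 23.9, 37.0, 7.99 and 17.9 in those of shTet2, so that the range of the shScr libraries covered every shTet2 library.

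H19, a maternally expressed non-coding RNA, and Igf2, the paternally expressed growth factor next to it, share enhancers that an insulator directs to either gene. H19 had 179, 679, 444, 279 and 350.2 normalised reads in shScr replicates 1 to 5, 94.2, 243, 315, 278 and 303 in those of shTet1 and 186, 536, 498, 494 and 370.1 in those of shTet2. Igf2 had 55.3, 133, 105, 71.0 and 504 normalised reads in shScr replicates 1 to 5, 34.3, 26.0, 43.4, 27.0 and 158 in those of shTet1 and 60.9, 56.2, 275, 57.7 and 668 in those of shTet2. In every group replicate 5 had the most Igf2, and the spread of Igf2 within groups (SD 1.07 on the log2-like scale) was the widest of the 49 members. Both means were lower in shTet1 than in shScr, H19 by a difference of −0.55 (95% CI −1.23 to 0.14) and Igf2 of −1.03 (95% CI −2.19 to 0.13), with limma adjusted p-values of 0.557 and 0.493. With the replicate block the limma adjusted p-values were 0.0639 and 0.0246. In shTet2 against shScr the differences were 0.14 and 0.10, and in shTet2 against shTet1 they were 0.69 and 1.14 (limma adjusted p = 0.315 and 0.334, with the block 0.0112 and 0.00556). Deviations of the 15 libraries from their group means gave r = 0.22 between the neighbours (permutation p = 0.461, adjusted over 6 relations 0.554) and rho = 0.15 (permutation p = 0.625, adjusted 0.750), with r = 0.08 without the 2 libraries farthest in H19, 0.37 within replicates 1 and 2 (n = 6) and −0.17 within replicates 3 to 5 (n = 9).

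In the Dlk1-Dio3 cluster the maternally expressed non-coding RNAs had higher levels than the paternally expressed genes. In shScr, Rian, Meg3 and Mirg stood at 1337 ± 341, 53.7 ± 29.7 and 187 ± 59.1 normalised reads per kb of exon, and Dlk1 and Dio3 at 1.45 ± 1.05 and 13.6 ± 5.20. Meg3 had 1838, 1137, 548, 738 and 596 normalised reads in shScr replicates 1 to 5, 625, 911, 938, 625 and 600.2 in those of shTet1 and 1054, 882, 1204, 569 and 745 in those of shTet2. Dlk1, a ligand-like membrane protein and the paternally expressed partner of Meg3, had 7.17, 6.27, 1.14, 8.88 and 17.5 normalised reads in shScr replicates 1 to 5, 7.30, 3.83, 8.94, 6.22 and 6.77 in those of shTet1 and 9.50, 1.54, 17.7, 10.3 and 11.2 in those of shTet2. The groups overlapped widely for both. All 5 members of the cluster had lower means in shTet1 than in shScr (Dlk1 −0.04, Meg3 −0.26, Rian −0.24, Mirg −0.54 and Dio3, a deiodinase, −0.55). Of them limma called 0, also with the block, and 1 (Dio3, 20%) had an unadjusted p under 0.05, beside 11.8% of all genes. The same genes differed in shTet2 by 0.11, −0.02, −0.14, −0.11 and −0.01. Rian and Mirg, which host small nucleolar RNAs and microRNAs, varied together over the 15 libraries as deviations from group means (r = 0.93, permutation p = 0.000150, adjusted over 6 relations 0.000900, rho = 0.96, permutation p = 0.0001 from 100000 permutations, adjusted 0.0006). Without the 2 libraries farthest in Rian r was 0.96, within replicates 1 and 2 0.92 (n = 6) and within replicates 3 to 5 0.96 (n = 9). The paired values share a library and its scaling. The other relations tested (Meg3 with Rian and with Mirg, Dlk1 with Meg3, H19 with Igf2 and Peg10 with Sgce) had r of −0.25 to 0.56, with adjusted permutation p-values of 0.0885 to 0.838. For Meg3 and Rian r was 0.56 (adjusted permutation p = 0.121) and rho 0.62 (adjusted permutation p = 0.0929).

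**Figure D3:**
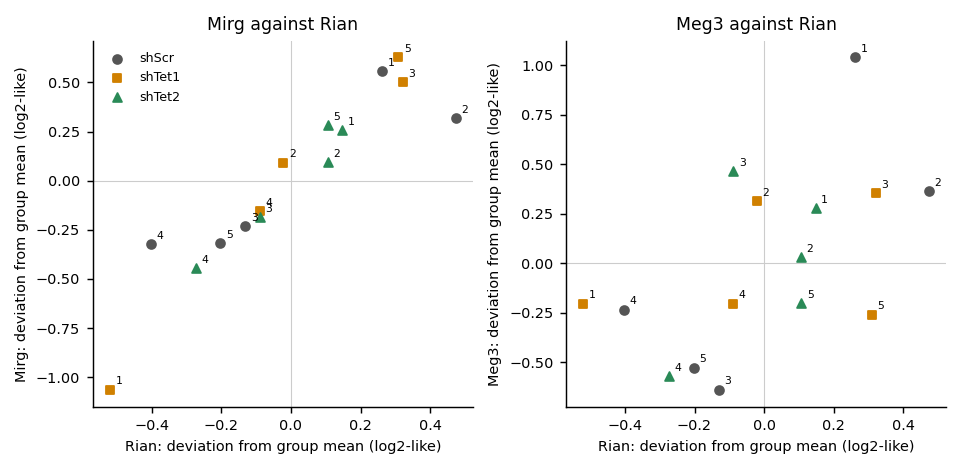
Deviation of each library from its group mean (log2-like scale) for Mirg against Rian and for Meg3 against Rian, 15 libraries with the replicate number beside each point and groups by colour and shape. The points of Mirg and Rian follow a line (r = 0.93), and those of Meg3 and Rian scatter more (r = 0.56).

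For the 8 members of the clusters methylated in sperm (H19, Igf2, the 5 of Dlk1-Dio3, and Rasgrf1, a guanine exchange factor at fewer than 1 read per kb), 0 had a higher mean and 8 a lower mean in shTet1 than in shScr, with a median of −0.40 and a range of −1.03 to −0.04. The 38 members of clusters methylated in oocytes had 16 higher and 22 lower, with a median of −0.12. The first of these patterns rests on replicates 1 and 2 (0 higher, 8 lower, median −0.89) and was not seen to this extent in replicates 3 to 5 (3 higher, 5 lower, median −0.08). For shTet2 against shScr, 3 of the 8 were higher and 5 lower (median −0.01), but the sets of replicates differed here too, with 0 higher and 8 lower within replicates 1 and 2 (median −0.38) and 7 higher and 1 lower within replicates 3 to 5 (median 0.27). Lower means of all 8 within replicates 1 and 2 were thus found in both knockdowns. Both comparisons use the same shScr libraries, so high values there weigh on both and these are not separate findings. Genes within a cluster share regulation, so these are 3 clusters and not 8 separate cases, and the counts carry no test.

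The Peg10-Sgce cluster of chromosome 6 held members that differed in different directions. Peg10, a retrotransposon-derived gene needed for the placenta, had 3935, 5017, 1724, 1692 and 4517 normalised reads in shScr replicates 1 to 5, 2712, 1893, 1650.3, 1214 and 1773 in those of shTet1 and 2009, 3442, 7347, 1626 and 4148 in those of shTet2. Sgce, which shares its promoter region with Peg10 and encodes a sarcoglycan, had 56.3, 41.4, 38.8, 39.9 and 33.9 normalised reads in shScr replicates 1 to 5, 56.2, 75.7, 23.0, 42.5 and 36.1 in those of shTet1 and 74.4, 91.6, 39.9, 94.2 and 59.3 in those of shTet2. In shTet1 the Peg10 mean was lower (−0.76, limma adjusted p = 0.434) and that of Sgce close to shScr (0.05). In shTet2 the difference of Sgce was 0.48 and that of Peg10 0.08, and shTet2 replicate 3 alone had more Peg10 than any other library.

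Ppp1r9a, a maternally expressed actin-binding scaffold known as neurabin, lies in the same cluster at chr6:4853004-5115661, plus strand. It had 916, 1080.2, 671, 732 and 809 normalised reads in shScr replicates 1 to 5, 1264, 1154, 1152, 935 and 1034 in those of shTet1 and 838, 963, 865, 656 and 740.2 in those of shTet2. The shTet1 libraries were mostly above those of both other groups, with an overlap through shScr replicate 2 and shTet2 replicate 2. The difference in shTet1 against shScr was 0.39 (SE 0.15, 95% CI 0.09 to 0.70), with a limma adjusted p of 0.273, with the replicate block 0.0426, and an exact permutation p of 0.0317. It was 0.27 within replicates 1 and 2 and 0.48 within replicates 3 to 5. In shTet2 against shTet1 it was −0.43 (95% CI −0.74 to −0.13, limma adjusted p = 0.112, with the block 0.0128). Asb4, which encodes a substrate adaptor of ubiquitin ligases, had 5.12, 3.76, 3.43, 7.77 and 9.24 normalised reads in shScr replicates 1 to 5, 5.11, 10.7, 7.66, 3.11 and 5.64 in those of shTet1 and 25.3, 27.7, 20.7, 8.56 and 6.71 in those of shTet2. In shTet2 replicates 1 to 3 lay above every library of the other groups, and replicates 4 and 5 lay among them. Its difference in shTet2 against shScr was 0.52 (SE 0.17, 95% CI 0.16 to 0.88, limma adjusted p = 0.213, exact permutation p = 0.0397), with 0.93 within replicates 1 and 2 and 0.25 within replicates 3 to 5.

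**Figure D4:**
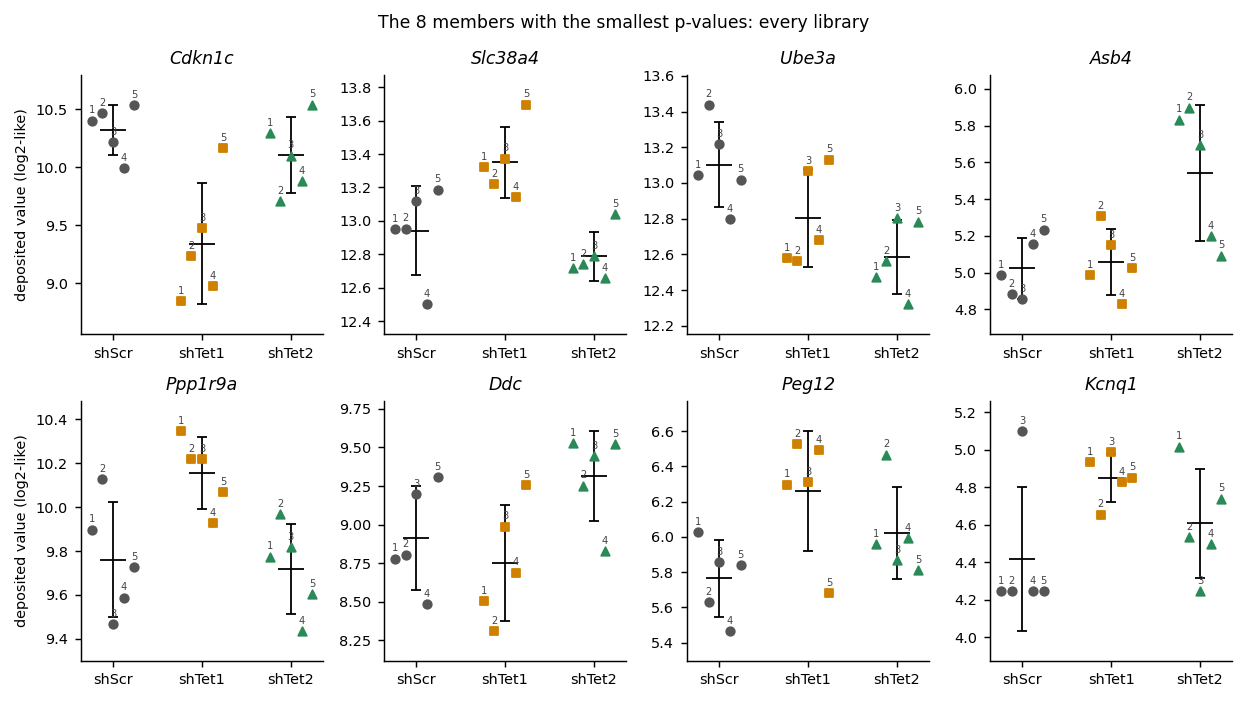
Deposited log2-like value of every library for the 8 members with the smallest p-values, by group, with replicate numbers beside the points and the mean ± SD of 5 libraries in black. Cdkn1c is lower in shTet1 than in shScr except for replicate 5, and Slc38a4 is higher in all 5 shTet1 libraries than in any shTet2 library.

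Igf2r encodes a receptor that clears IGF2 and is listed here as maternally expressed. Airn is the antisense RNA that can silence it from the paternal copy. Whether Igf2r came from a single copy in these cells was not measured. In shScr, Igf2r and Airn had levels of 498 ± 180.2 and 0.250 ± 0.404 normalised reads per kb of exon. Igf2r had 3836, 4224, 3601, 7709 and 4125 normalised reads in shScr replicates 1 to 5, 4126, 5034, 3416, 5389 and 3043 in those of shTet1 and 4374, 5784, 4847, 8143 and 3929 in those of shTet2. Replicate 4 had the most Igf2r in all 3 groups. The differences from shScr were −0.13 in shTet1 and 0.21 in shTet2 (limma adjusted p = 0.885 and 0.793). Airn had 0, 0, 1.14, 3.33 and 0 normalised reads in shScr replicates 1 to 5, 0, 0, 0, 0 and 2.26 in those of shTet1 and 0, 2.31, 0, 1.71 and 1.12 in those of shTet2, which is 0 to 3 reads a library, so that a difference was not detectable at this depth.

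**Figure D5:**
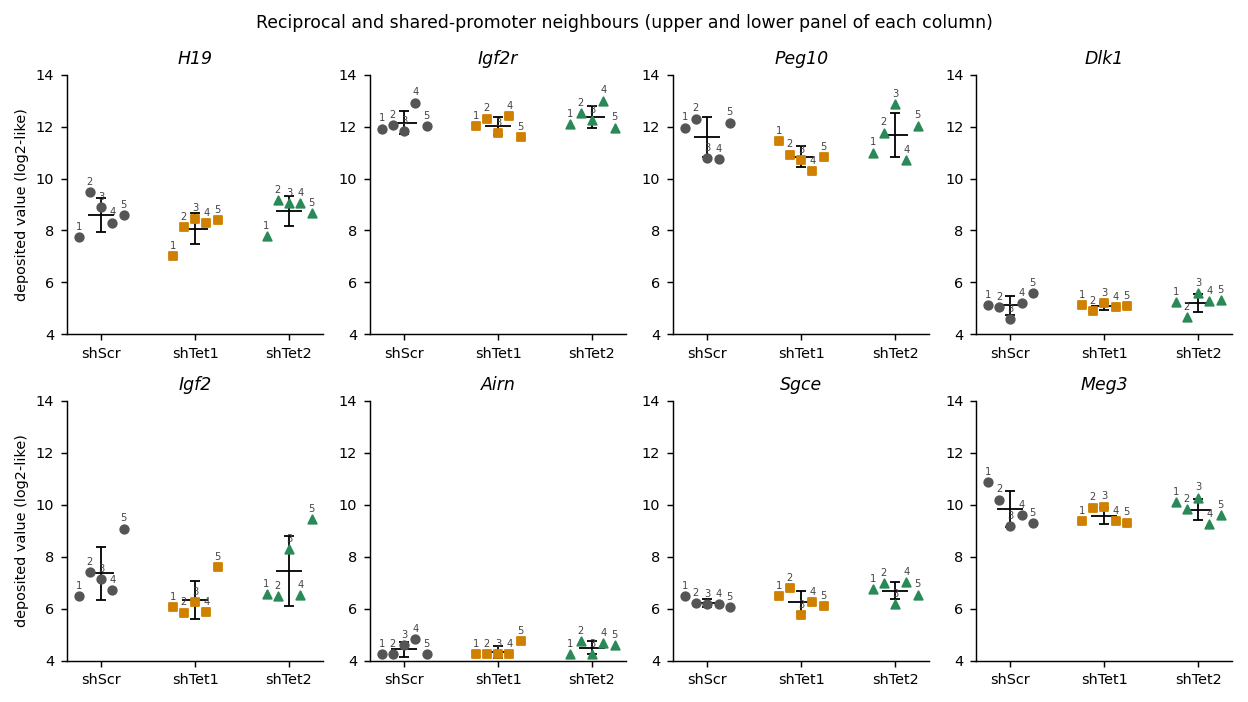
Deposited log2-like value of every library for H19 and Igf2, Igf2r and Airn, Peg10 and Sgce, and Dlk1 and Meg3 (each pair in 1 column, common axis), with the mean ± SD of 5 libraries in black and replicate numbers beside the points. Igf2 in replicate 5 stands above the other libraries in each group, and Airn and Dlk1 lie near the lowest value of the table (4.25).

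Ddc, the decarboxylase of dopamine and serotonin synthesis, paternally expressed in heart, had 402, 410.2, 551, 321 and 596 normalised reads in shScr replicates 1 to 5, 326, 281, 470.0, 375 and 574 in those of shTet1 and 699.7, 572, 659, 418 and 698 in those of shTet2. Of the 5 shTet2 libraries 3 lay above every library of the other groups, and replicate 4 was the lowest. It differed by 0.57 in shTet2 against shTet1 (SE 0.20, 95% CI 0.15 to 0.98, limma adjusted p = 0.139, with the block 0.0101, exact permutation p = 0.0397) and by 0.40 in shTet2 against shScr (95% CI −0.02 to 0.82, limma adjusted p = 0.461). Within replicates 1 and 2 these differences were 0.98 and 0.60, and within replicates 3 to 5 they were 0.29 and 0.27. Grb10, the neighbour of Ddc and an adaptor that restrains insulin signalling, differed by −0.22 in shTet1 and −0.22 in shTet2 against shScr.

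The remaining single genes and pairs had no call against shScr, with or without the block. Zdbf2 had 1645, 3289, 1406, 2954 and 1720.4 normalised reads in shScr replicates 1 to 5, 1328, 1588, 1558, 1272 and 851 in those of shTet1 and 909, 1912, 3078, 1332 and 1513 in those of shTet2, and its difference in shTet1 was −0.67 (95% CI −1.26 to −0.08, limma adjusted p = 0.344). Of the 5 shTet1 libraries 3 lay below every shScr library. Mest, a hydrolase-like gene, differed by −0.21 and 0.01 in shTet1 and shTet2, and Copg2, which overlaps it, by 0.33 and 0.23. Impact differed by −0.13 and 0.04, Gnas, the stimulatory G protein subunit, by 0.22 and 0.21, Plagl1, a zinc finger transcription factor, by −0.17 and 0.23, Nnat, encoding neuronatin, by −0.17 and −0.17, Sfmbt2, a Polycomb protein of the placenta, by 0.16 and −0.05, and Commd1 by 0.08 and −0.35. Among the rest, Blcap differed by −0.18 and −0.02, Casd1 by −0.12 and −0.21, Inpp5f, a phosphoinositide phosphatase, by −0.16 and 0.09, Trappc9, a trafficking protein gene, by −0.16 and 0.05, and Zrsr1, a splicing factor gene, by −0.21 and −0.12. Calcr (calcitonin receptor), Klf14, Nap1l5, Dcn (decorin) and Rasgrf1 differed by 0.07, 0.24, 0.0044, −0.22 and −0.10 in shTet1 and by −0.18, 0.36, −0.0040, −0.10 and −0.20 in shTet2. Phactr2, next to Plagl1, differed by 0.43 in shTet1 against shScr and by −0.53 in shTet2 against shTet1, where the limma adjusted p was 0.290 and with the block 0.0446.

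In shTet2 against shTet1 limma called 2 of the 49 members (4.08%), beside 4.24% of all genes tested, and voom called 2. The share of members called is thus near the background. They were Cdkn1c, higher in shTet2, and Slc38a4, lower. At an unadjusted p under 0.05 stood 11 members (22.4%) beside 15.7% of all genes, with 8 higher and 3 lower. The groups did not overlap for 1 member (Slc38a4, 2.04%) beside 6.04% of all genes. With the replicate block 7 were called (14.3%) beside 11.2% of all genes, and these were Cdkn1c, Ddc, H19 and Igf2, higher in shTet2, and Slc38a4, Ppp1r9a and Phactr2, lower. Of 22 paternally expressed members 16 were higher and 6 lower (median 0.21), and of 22 maternally expressed members 14 were higher and 8 lower (median 0.11). Each class held 1 call (4.55%, beside 4.24% of all genes). This comparison shares its shTet1 libraries with shTet1 against shScr, so a member low in shTet1 weighs on both. Without the 4 libraries with most receptor reads, or with libraries centred on their medians, 0 members were called in it (with 9 and 8 at an unadjusted p under 0.05). Genes of the 2-cell-like state rose in it, as given above.

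Of 25 genes that keep or alter imprints (among them Zfp57, Trim28, Dnmt1, Uhrf1 and Ctcf), limma called 1 in shTet1 against shScr. It called 2 in shTet2 against shScr and 3 in shTet2 against shTet1. In that order these were 4%, 8% and 12%, beside 0.0718%, 0.39% and 4.24% of all genes. An unadjusted p below 0.05 was found for 2, 6 and 5 (8%, 24% and 20%), beside 11.8%, 11.6% and 15.7% of all genes. Most of the calls were the targeted genes, and in shTet1 against shScr the call was Tet1 itself. For shTet2 against shScr it called Tet2 and Dppa3, a maternal factor that protects methylated DNA from oxidation, which rose by 1.41 (adjusted p = 0.0372), and 19 of the 25 had lower means. Dppa3 differed by 1.07 in shTet1 (limma adjusted p = 0.126, with the replicate block 0.0164), from a mean of 382 normalised reads in shScr to 788 in shTet1. In shTet2 against shTet1 it called Tet1, Tet2 and Ctcfl, a germ-cell relative of the insulator protein CTCF, which rose by 1.13 (adjusted p = 0.00429). Among 24 other imprinted genes outside the list, 19 were tested. In the 3 comparisons, limma called 0, 0 and 2 of them (Ascl2 and Tnfrsf23, given above), the last being 10.5% beside 4.24% of all genes. An unadjusted p under 0.05 was found for 3, 1 and 4 (15.8%, 5.26% and 21.1%), beside 11.8%, 11.6% and 15.7% of all genes. In shTet1 against shScr 4 of these 19 were higher and 15 lower, with a median of −0.20. Peg3, the zinc finger gene that names the excluded domain, fell by 0.99 in shTet1 (limma adjusted p = 0.0161), a call that no member reached, and differed by 0.17 in shTet2.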

How the data were processed

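RNA was sequenced from 15 libraries of E14 ESCs (5 shScr, 5 shTet1, 5 shTet2) as directional, ribosomal RNA-depleted 75-base single reads. The authors trimmed reads with Trim Galore 0.3.3, aligned them to mm9 with TopHat2 2.0.9, counted them per gene with Seqmonk and deposited variance-stabilised values from DESeq2 on a log2-like scale for 26061 genes. Whether counting used strand, and which of the RNA kits served which library, is not given in the sources used here. Inverted to linear scale, 100% of the values were whole multiples of 1 read (tolerance 0.05 read), at 15258291 to 35432425 reads a library.

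Values were compared with limma 3.58.1 (R 4.3.3; lmFit, eBayes with a variance trend) on all 15 libraries with group as the only term, over the 19490 genes above the table minimum in at least 5 libraries. P-values are two-sided, Benjamini-Hochberg adjusted over all of them, threshold 0.05. Single genes were also tested by exact permutation of 5 against 5 libraries (252 arrangements, Python 3.11.15, scipy 1.17.1). The scripts were tested on simulated data. Nothing states that the libraries came from separate cultures, so p-values measure the spread between these libraries.

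The members and gene lists (imprint maintenance, other imprinted genes, the Peg3 domain and cell type markers) and the split of replicates 1 and 2 from 3 to 5 were chosen with earlier results of these data known. Members with an adjusted p under 0.05 in any comparison were named in full, followed by those with the smallest p until 8 were reached, and neighbouring pairs were given by library. Magel2 and Zdbf2 were added after their values were seen. Same-numbered libraries correlated in their deviations from group means at r = 0.374 to 0.657 (shTet1 with shScr) and 0.330 to 0.731 (shTet2 with shTet1) and were treated as pairs there, but at 0.00789 to 0.769 for shTet2 with shScr, where the numbers were not taken as pairs. Libraries of different groups from the same replicate set had r of −0.22 to 0.77 (median 0.31), so pairing by number was not told apart from the set. Alternatives were another filter, scaling or variance model, voom on recovered reads, the replicate block, and leaving out libraries. The block was fitted over all 15 libraries with replicate effects shared by the 3 groups, shTet2 and shScr included. Gene positions are from GENCODE on mm9 and promoter sequences from RefSeq on GRCm38.p6.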

Additional observations from a re-analysis of the deposited data

Results flagged for a closer look

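Among 48 groups of 5 libraries checked (16 members, 3 groups), 7 held a library apart from the other 4 by Dixon's ratio at its 95% critical value (0.71), which chance alone gives for about 1 group in 20. Values are on the log2-like scale. Peg12 stood apart in 2 groups, low in shTet1 replicate 5 (5.68, 20.3 normalised reads) and high in shTet2 replicate 2 (6.47, 54.6 normalised reads). Kcnq1 was high in shScr replicate 3 (5.10, from 6 reads), and Airn in shTet1 replicate 5 (4.74, from 2 reads). H19 was low in shTet1 replicate 1 (7.01, 94.2 normalised reads). Igf2 was high in shTet1 replicate 5 (7.60, 158 normalised reads), the replicate number that also had the most Igf2 in the other groups. Igf2r was high in shScr replicate 4 (12.92, 7709 normalised reads), and replicate 4 had the most Igf2r in all groups.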

How the results depend on the processing

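In the comparisons of shTet1 with shScr, shTet2 with shScr and shTet2 with shTet1, 0, 0 and 2 members were called, and 28 alternatives were run. In shTet1 against shScr 4 were called with the replicate block, 1 with array weights and 0 to 1 when 1 library was left out, the 1 being Cdkn1c without shTet1 replicate 5. In shTet2 against shScr the block called 1 (Ube3a, adjusted p = 0.0227, with 4.31% of all genes). In shTet2 against shTet1 7 were called with the block, 3 with array weights (Cdkn1c, Ddc and Slc38a4), 1 with no filter, with a filter on the mean, with no variance trend or with only those groups in the fit, and 0 with median centring, within replicates 1 and 2, within replicates 3 to 5 and, chosen after seeing the data, without the high-receptor libraries. Leaving out 1 library gave 0 to 2 there, with 0 without shTet1 replicate 1 or 3 or shTet2 replicate 1, 3 or 4. The causes were not tested. Over all genes, the block called 935, 840 and 2178 genes in place of 14, 76 and 827. Array weights called 56, 283 and 1246, within replicates 1 and 2 0, 0 and 0, within replicates 3 to 5 0, 1 and 143, without the high-receptor libraries 1, 13 and 345, and leaving out 1 library 1 to 171, 10 to 99 and 512 to 902. A filter on the mean called 37, and only 2 groups in the fit 3, in shTet1 with shScr. Quantile normalisation called 22, 45 and 741. Median centring changed the genes called higher and lower from 43 and 33 to 5 and 34 in shTet2 against shScr, and from 561 and 266 to 437 and 327 in shTet2 against shTet1.

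Over all alternative fits of the 8 members named in full, 9 fitted values changed sign. All of them belong to the differences given next. Asb4 in shTet1 against shScr was −0.016 with median centring, −0.082 within replicates 3 to 5 and −0.027 to 0.093 with 1 library left out. Ppp1r9a in shTet2 against shScr was 0.064 with array weights, 0.025 within replicates 3 to 5 and −0.11 to 0.050 with 1 library left out, and Kcnq1 was −0.037 within replicates 3 to 5. None of these had an adjusted p under 0.05 in any fit. Of the other values 614 kept sign and side of the threshold, 9 passed it and 31 no longer did. For the 17 members with fewer than 100 normalised reads, depth limits what could be detected.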

Other observations

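Which library of a group was highest often followed the replicate number. In 11 of the 49 members (22.4%) the same number was highest in all 3 groups, beside 18.7% of the 19490 genes tested. Replicate 5 was highest for Cdkn1c, Dio3, Igf2, Nnat and Slc38a4, replicate 4 for Igf2r, Impact, Mkrn3 and Phactr2, replicate 1 for Grb10 and replicate 2 for Inpp5f. The labels do not say what libraries of one number share.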
